A study of Mus musculus with 4 samples.

Results

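The genes described here encode 10 RNA-binding regulators: the Hu proteins (Elavl1, Elavl2, Elavl3 and Elavl4), Quaking (Qk), the CELF proteins (Celf1 and Celf2), hnRNP A2/B1 (Hnrnpa2b1) and the Musashi proteins (Msi1 and Msi2). They were taken by symbol from the per-sample gene tables, which list 23444 symbols, and all 10 were found with a single row each. The samples were 2 knockout libraries (lncOL1-/-) and 2 control libraries, whose shared genotype label names lncOL1+/+ and lncOL1+/- without saying which library is which. All 4 came from primary mouse oligodendrocyte precursors kept for 1 day with T3, the thyroid hormone that starts differentiation in culture, and all are of mixed strain background. The comparison asks which genes differ in level after loss of the long noncoding RNA lncOL1. Nothing in the labels says that the libraries came from separate animals or cultures, so the p-values measure the spread between these libraries, which may be technical.

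RNA-binding proteins of this kind act after transcription, on splicing, decay, transport and translation of the mRNAs they hold. Quaking is a KH-domain protein that binds a paired ACUAA and UAA element, and mice with reduced Quaking in oligodendrocytes fail to myelinate normally. hnRNP A2 binds a trafficking element in the Mbp mRNA and takes part in its transport into oligodendrocyte processes. Hu proteins bind AU-rich stretches. Elavl1 (HuR) is made in most cells, whereas Elavl2, Elavl3 and Elavl4 are known as neuronal proteins. CELF proteins bind GU-rich RNA and act on splicing and decay, and Musashi proteins act on translation and are known from neural progenitors.

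Letter patterns for elements that Quaking and Hu proteins recognise are shown first. A gene without a match may still be bound: the Quaking targets Mag, Map1b and Nfasc had no paired element in the 3′ UTR read. The paired Quaking element was searched as ACTAAC or ACTAAT, then 1 to 20 bases, then TAAC or TAAT, on the sense strand of the 3′ UTR of 1 principal GENCODE transcript per gene (release M21, GRCm38, the assembly called mm10 in the deposited data). It was found in 2 of the 10 regulators, Qk itself and Celf2, and in 2 of 5 Quaking target genes read in the same way, Cdkn1b and Hnrnpa1. The 3′ UTR of Mbp, also a Quaking target, was not read here. The paired parts are in capitals. The element is at chr17:10206526-10206555 (minus strand) for Qk, chr2:6546708-6546726 (minus) for Celf2, chr6:134922878-134922906 (plus) for Cdkn1b and chr15:103244429-103244442 (plus) for Hnrnpa1.
Qk: ACTAACtctggactatgtttgtttatTAAC
Celf2: ACTAATgtgcagttcTAAC
Cdkn1b: ACTAATgctcccacagaattgatttTAAC
Hnrnpa1: ACTAATtgtaTAAC
Of other 3′ UTRs within 20% of the same length, 40.7% hold such an element for the length of Qk, 4.74% for Celf2, 18.7% for Cdkn1b and 3.75% for Hnrnpa1. These are matches of letters, not measured binding sites.

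The AU-rich nonamer TTATTTATT, searched on the same strand, was found in the 3′ UTRs of 3 of the 10 regulators. Elavl1 had 8 overlapping or neighbouring copies in its 3′ UTR of 4218 bases, and Elavl4 and Msi1 had 1 copy each. Elavl3 had 0 in 3498 bases. Of other 3′ UTRs within 20% of the same length, 18.3% hold the nonamer for the length of Elavl1, 12.6% for Elavl4, 10.2% for Msi1 and 15.4% for Elavl3. Windows of 29 bases are printed with the nonamer in capitals, for the first copy in Elavl1 (chr8:4285788-4285816, minus) and the copies in Elavl4 (chr4:110204985-110205013, minus) and Msi1 (chr5:115454032-115454060, plus).
Elavl1: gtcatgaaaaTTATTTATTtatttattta
Elavl4: cttgaaacacTTATTTATTtaattgcaga
Msi1: ctggtcgcttTTATTTATTtttggattag
No window overlaps a Quaking element, since none of these 3 genes holds one.

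The targeted RNA was lower in the libraries labelled knockout. lncOL1 (9630013A20Rik) had 5.54 and 5.06 FPKM in knockout and 28.9 and 34.0 in control. FPKM is the number of sequenced fragments per transcript length, after scaling for library size. Its log2 fold change was -2.36. Summed FPKM was 375762 to 383128 per library, and low values gave estimated relative depths of 0.94 to 1.18 against control replicate 1. The number of reads behind a value is not given, so precision rests on the spread between libraries. The oligodendrocyte markers Olig1, Olig2, Sox10, Cnp and Mbp were at 253 FPKM or above in every library. The astrocyte markers Gfap, which encodes the intermediate filament of astrocytes, and Aldoc were also at 151 FPKM or above in every library. The other astrocyte markers were lower, with means of 40.5 FPKM for Aqp4, 33.2 for Aldh1l1, 12.6 for Slc1a2 and 2.85 for Gja1 over the 4 libraries.

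The regulators differed widely in level, and their order was the same in all 4 libraries. From high to low by mean FPKM it was Qk, Hnrnpa2b1, Elavl3, Celf1, Msi2, Elavl1, Msi1, Celf2, Elavl2 and Elavl4, and for each of the 9 neighbouring pairs the ranges over libraries did not overlap. Qk averaged 370.9 FPKM, above 98.8% of the 11361 genes tested, and Hnrnpa2b1 245 FPKM, above 98.1%. Elavl4 averaged 1.63 FPKM, above 6.5% of them. All 10 were at 1 FPKM or more in every library, so each entered the test through both groups.

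Across all genes tested, log2(FPKM + 1) was compared between knockout and control with limma, a linear model that shares an estimate of the spread across genes, over genes that averaged 1 FPKM or more. A gene is called where its Benjamini-Hochberg adjusted p is under 0.05. Of the 10 regulators, 1 fell (Elavl3), 0 rose and 9 did not pass, where 1.31% of all genes tested were called, 0.783% lower and 0.528% higher. The median log2 fold change of the 10 was 0.04, against 0.005 over all genes tested. The groups did not overlap for 5 of them, 4 with the knockout above and 1 with it below. The same holds for 43.4% of all genes tested, 22.6% with the knockout above and 20.7% with it below. In the authors' deposited table, 1 of the 10, again Elavl3, is marked significant, where 5.78% of its 12517 tested genes are, 4.04% as lower.

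**Figure D1:**
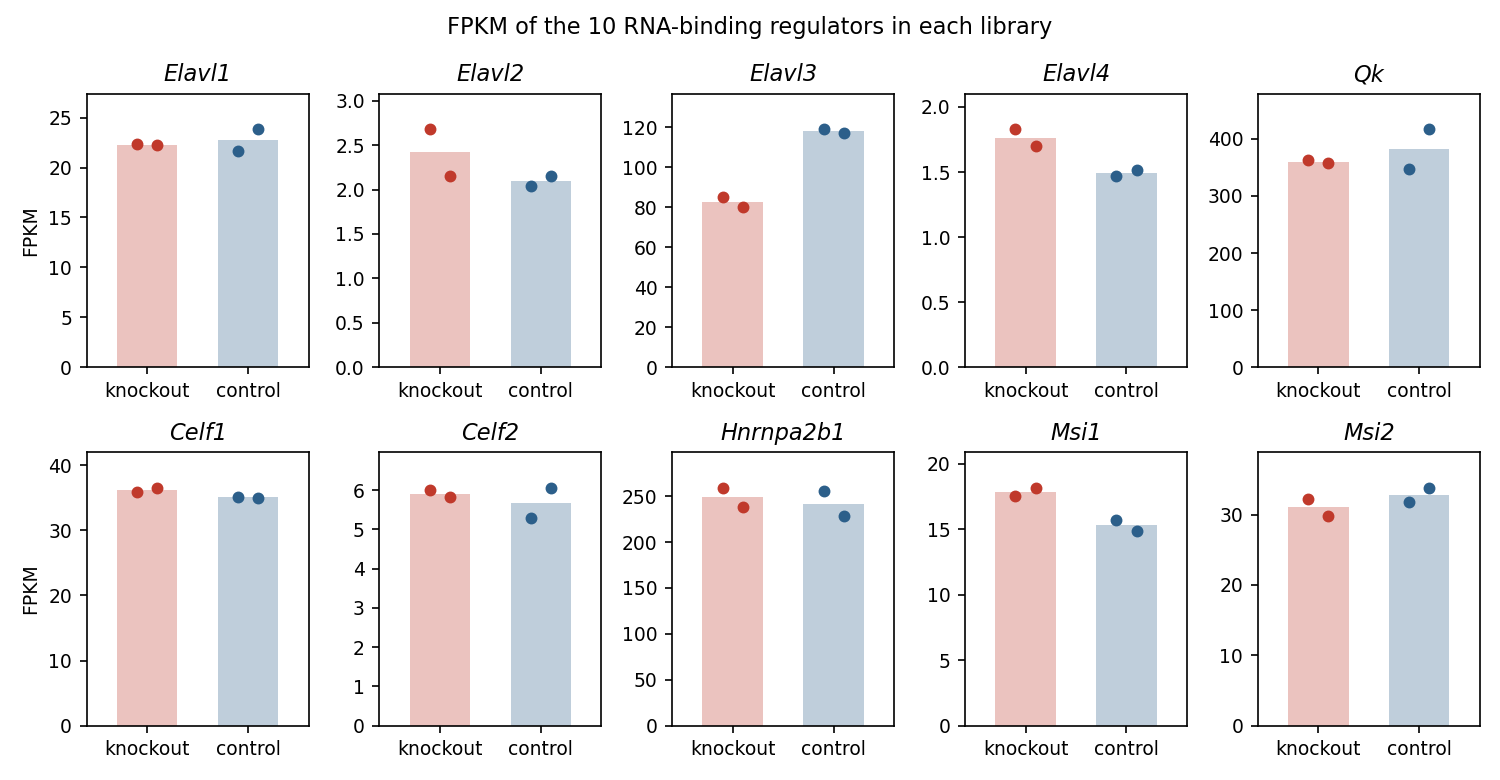
FPKM (vertical axes, each from 0) of the 10 regulators in the 2 knockout (red, left) and 2 control (blue, right) libraries; points are libraries and bars are group means. Elavl3 stands at 85.1 and 79.9 in knockout and 119 and 117 in control, and the points of Qk, Hnrnpa2b1, Elavl1, Celf2 and Msi2 overlap between groups.

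Elavl3 was the member that fell. It had 85.1 and 79.9 FPKM in the knockout libraries, against 119 and 117 FPKM in the control libraries. Both knockout values lie well below both control values, and the gap between the groups is larger than the distance between libraries of a group. The means were 82.5 ± 3.71 FPKM in knockout and 118.1 ± 1.31 FPKM in control (SD, n = 2 each), a level that fell by 30.1% in knockout, with a log2 fold change of -0.51 (SE 0.070, 95% interval -0.68 to -0.34, limma adjusted p = 0.0263). The authors' deposited table gives pooled values of 83.1 FPKM in knockout and 121.5 FPKM in control, a log2 fold change of -0.55 and a q written as 0. The call was lost with no filter on low values (limma adjusted p = 0.0855) and whenever any single library was dropped (adjusted p 0.13 to 0.218), where the log2 fold change was -0.56 to -0.47. In these bulk samples, fewer cells of a type and less RNA per cell cannot be told apart.

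By size, 112 of the genes tested had a log2 fold change lower than that of Elavl3. Among 279 other genes whose mean FPKM was within 1.2-fold of it, 6 had a lower log2 fold change and 2 rose by more than its size. The gene lies at chr9:22015005-22052023 on the minus strand, and another GENCODE gene of that strand, Gm49318, overlaps its exons. Of the 50-base stretches in Elavl3 transcripts, 3.11% also occur in transcripts of other genes, and 2.98% in Gm49318. The part of these shared reads in the difference was not tested.

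The other Hu protein genes did not pass the test. Elavl1, the widely expressed member (chr8:4284782-4325100, minus strand), had 22.3 and 22.2 FPKM in knockout and 21.6 and 23.8 FPKM in control. The knockout values lie between the control values, and the log2 fold change was -0.03 (95% interval -0.21 to 0.15, limma adjusted p = 0.935). Some exons of Elavl1 overlap those of Ccl25 on the opposite strand. Whether reads were counted by strand is not stated, so it is not known to which gene reads in the overlapping parts were given.

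Elavl2 (chr4:91250767-91399984, minus strand) and Elavl4 (chr4:110203737-110351911, minus strand) were expressed at low levels. Elavl2 had 2.68 and 2.16 FPKM in knockout and 2.04 and 2.15 in control, a log2 fold change of 0.14 (limma adjusted p = 0.659). Elavl4 had 1.83 and 1.70 FPKM in knockout and 1.47 and 1.51 in control, a log2 fold change of 0.15 (limma adjusted p = 0.584). In both the knockout values lay above the control values, for Elavl2 by less than the spread between the knockout libraries, and the fold on the log2(FPKM + 1) scale understates changes at such levels. As a check on shared reads, none of the 50-base stretches of Elavl1, Elavl2 or Elavl4 transcripts occurred in transcripts of another gene. Only the sense direction was compared, so the opposite-strand overlap of Elavl1 with Ccl25 is not covered.

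Elavl3 made up most of the Hu protein RNA. Its share of the summed Elavl FPKM was 76.0% and 75.4% in the knockout libraries and 82.6% and 81.0% in the control libraries, and the sum itself was 112 and 106 FPKM in knockout and 144 and 145 in control. The ratio of Elavl3 to Elavl1 was 3.81 and 3.59 in knockout and 5.50 and 4.91 in control. These groups do not overlap, but with 2 libraries against 2 an exact two-sided permutation test cannot go below p = 0.333, and no other test of this difference was run.

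**Figure D2:**
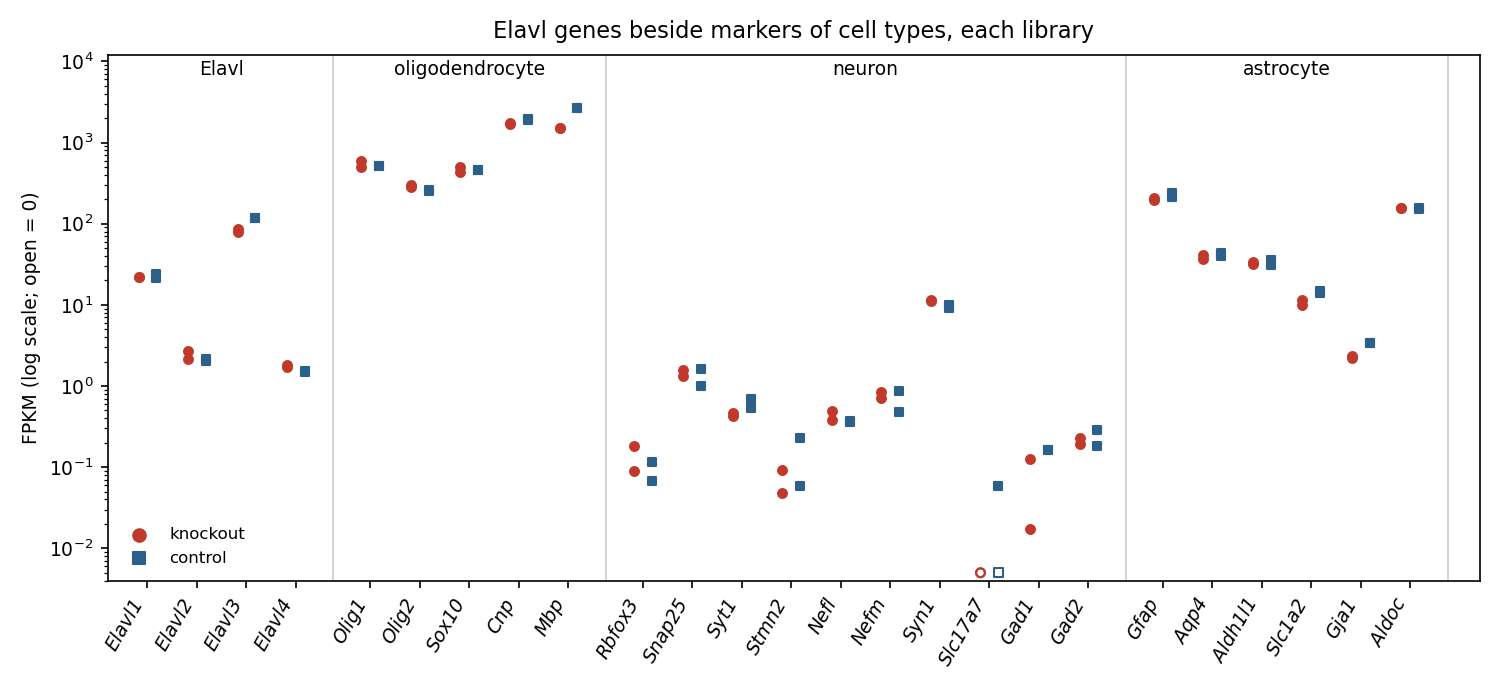
FPKM on a log axis of the 4 Elavl genes and of marker genes of oligodendrocytes, neurons and astrocytes, in the 2 knockout (red circles) and 2 control (blue squares) libraries; open symbols are listed at 0. Elavl3 lies far above the other neuronal-type Elavl genes and above all 10 neuron markers, of which 8 are under 1 FPKM in every library.

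The level of Elavl3 stood apart from the neuron markers. Of 10 neuron markers, 8 were under 1 FPKM in every library, among them Rbfox3 (NeuN, a splicing factor of mature neurons), at 0.0896 and 0.182 FPKM in knockout and 0.0667 and 0.117 in control. The vesicular glutamate transporter gene Slc17a7 was listed at 0 in 3 of the 4 libraries. Syn1 (synapsin), the highest of the list, had 11.01 and 11.33 FPKM in knockout and 9.10 and 10.1 in control. The summed level of the list was 14.6 and 15.0 FPKM in knockout and 13.2 in both control libraries, most of it from Syn1. Its members differed in direction. Syt1, a synaptic calcium sensor, had 0.467 and 0.426 FPKM in knockout and 0.695 and 0.538 in control, and Gad1, an enzyme of GABA synthesis, had 0.0172 and 0.126 in knockout and 0.162 and 0.164 in control. In Syt1 and Gad1 both knockout values were below both control values, as for 20.7% of all genes tested. Nefl, another neurofilament gene, had 0.495 and 0.383 FPKM in knockout and 0.365 and 0.368 in control. In Nefl and Syn1 both knockout values were above both control values, as for 22.6% of all genes tested. These shares are over genes that averaged 1 FPKM or more, which Syt1, Gad1 and Nefl did not. Stmn2, a tubulin-binding protein, averaged 0.0703 FPKM in knockout and 0.142 in control. Nefm, also a neurofilament subunit, averaged 0.779 in knockout and 0.671 in control. The groups of both overlap. Of the 2 tested neuron markers (Snap25, a synaptic fusion protein, and Syn1), 0 were called.

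Markers of other cells are set beside it. The 6 microglia markers summed to 8.995 and 12.5 FPKM in knockout and 4.70 and 4.58 in control. Of the 2 tested, 1 rose (Tyrobp, a signalling adaptor of myeloid cells, log2 fold change 1.01, limma adjusted p = 0.0119) and C1qa, a complement subunit, did not pass (0.59, limma adjusted p = 0.317). That call was lost without control replicate 1 and without each knockout library (adjusted p = 0.0683 to 0.167) and with no filter on low values (adjusted p = 0.0855). Aif1 averaged 1.59 FPKM in knockout and 0.322 in control, Cx3cr1 0.656 in knockout and 0.292 in control, and Csf1r 0.802 in knockout and 0.499 in control, each below the level tested. For these 3, as for Tyrobp and C1qa, both knockout values were above both control values, and P2ry12, under 0.2 FPKM throughout, overlapped. Over all genes tested, 22.6% had both knockout values above both control values. The authors' deposited table marks Aif1 and Cx3cr1 as significantly higher in knockout (q = 0.0147 and 0.0229), and not Tyrobp (q = 0.134).

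The 6 astrocyte markers summed to 450 and 433 FPKM in knockout and 488 and 455 in control, and 0 were called. Of these the glutamate transporter gene Slc1a2 and the connexin gene Gja1, named after their values were seen, were at -0.38 and -0.41 on the log2 scale (limma adjusted p = 0.109 and 0.0884). Gfap and Aqp4, a water channel, were at -0.14 and -0.12 (limma adjusted p = 0.532 and 0.639). Aldoc and Aldh1l1 were at -0.001 and -0.017 (limma adjusted p = 0.996 and 0.965), and their groups overlap. The authors' deposited table marks Slc1a2, Gja1 and Gfap as lower, with q = 7.95e-05, 0.0159 and 0.0408. Of the oligodendrocyte markers, Mbp is given below. Olig2, Olig1, Sox10 and Cnp were at 0.20, 0.08, 0.02 and -0.16 on the log2 scale (limma adjusted p = 0.289, 0.789, 0.951 and 0.361). The authors' deposited table gives 0.095, -0.037, -0.092 and -0.228 for them and marks none as significant. The part of these microglia, astrocyte and oligodendrocyte markers in the Elavl3 difference was not tested.

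Qk (chr17:10206471-10319361, minus strand) was the most abundant of the regulators. It had 362 and 358 FPKM in knockout and 347 and 417 FPKM in control. The knockout values lie within the range of the control values, and the log2 fold change was -0.08 (95% interval -0.31 to 0.16, limma adjusted p = 0.816). Without control replicate 2, the highest library, it was 0.05. The authors' deposited table gives -0.08 as well (log2 scale), with q = 0.868. The tables hold 1 value per gene, so the splice forms that give the nuclear and cytoplasmic Quaking proteins are not separated.

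Hnrnpa2b1 (chr6:51460435-51469894, minus strand) had 259 and 238 FPKM in knockout and 255 and 228 FPKM in control. The libraries of the groups alternate in order, with a log2 fold change of 0.04 (95% interval -0.16 to 0.24, limma adjusted p = 0.907). Without knockout replicate 1 and without control replicate 2 it was -0.02 and -0.04. The authors' deposited table gives higher pooled values, 410.1 FPKM in knockout and 399.6 FPKM in control, with the same direction (log2 fold change 0.04, q = 0.951). The per-library means were 248.6 ± 15.0 FPKM in knockout and 241.8 ± 18.8 FPKM in control (SD, n = 2 each). The level differs between the authors' tables, while the log2 fold change was 0.04 in both. A processed pseudogene, Gm5778, shares 0.591% of the 50-base stretches of Hnrnpa2b1.

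Neither CELF gene passed the test. Celf1 (chr2:90940397-91019497, plus strand) had 35.9 and 36.5 FPKM in knockout and 35.1 and 35.0 FPKM in control, a narrow gap with the knockout above. Its log2 fold change was 0.05 (95% interval -0.11 to 0.20, limma adjusted p = 0.847). Exons of Celf2 overlap those of Gm26565 on the opposite strand. Celf2 (chr2:6539699-7396198, minus strand) had 5.99 and 5.82 FPKM in knockout and 5.28 and 6.06 FPKM in control, and the knockout values lie within the control range (log2 fold change 0.05, limma adjusted p = 0.876). Without control replicate 1 the log2 fold change of Celf2 was -0.03. The ratio of Celf1 to Celf2 was 5.99 and 6.28 in knockout and 6.64 and 5.77 in control, so it overlapped.

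The Musashi genes did not pass the test. Msi1 (chr5:115429685-115454202, plus strand) had 17.5 and 18.2 FPKM in knockout and 15.7 and 14.9 FPKM in control. Both knockout values are above both control values, with means of 17.9 ± 0.439 in knockout and 15.3 ± 0.584 in control (SD, n = 2 each), a level 16.6% higher in knockout and a log2 fold change of 0.21 (SE 0.070, 95% interval 0.04 to 0.38). It failed the adjusted test (limma adjusted p = 0.259). Its unadjusted p was under 0.05, as for 13.7% of all genes tested. The authors' deposited table gives 14.1 FPKM in knockout and 13.0 FPKM in control, with q = 0.855.

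Msi2 (chr11:88339382-88718267, minus strand) had 32.3 and 29.7 FPKM in knockout and 31.8 and 33.8 FPKM in control, and the groups overlap (log2 fold change -0.08, 95% interval -0.26 to 0.10, limma adjusted p = 0.734). The ratio of Msi2 to Msi1 was 1.84 and 1.64 in knockout and 2.02 and 2.27 in control. The knockout ratios are below both control ratios, and again 2 libraries against 2 cannot give an exact p below 0.333. Of the Musashi targets Numb, an inhibitor of Notch, and Cdkn1a, an inhibitor of cyclin-dependent kinases, 0 were called, with log2 fold changes of -0.10 and -0.02. Of the 5 neural progenitor markers, where Musashi is known, 0 of 5 tested were called and their summed level was 619 and 627 FPKM in knockout and 625 and 586 in control. The most abundant of them, Vim, Sox2 and Hes5, were at 0.05, 0.04 and -0.04 on the log2 scale (limma adjusted p = 0.852, 0.867 and 0.924).

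**Figure D3:**
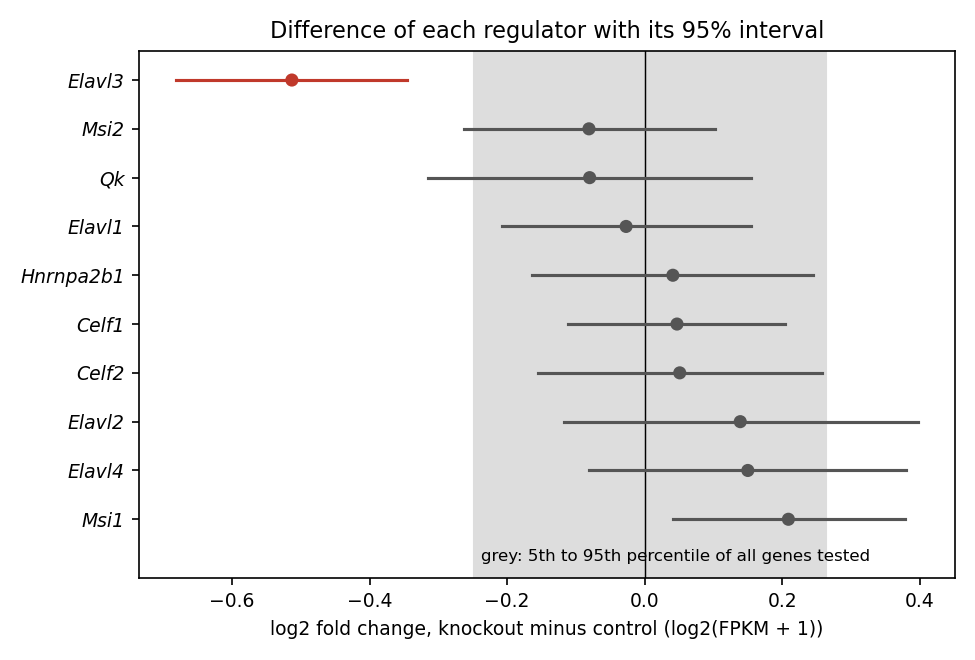
Log2 fold change, knockout minus control, on the log2(FPKM + 1) scale, of each regulator with its 95% interval from limma; the grey band is the 5th to 95th percentile of all genes tested (-0.25 to 0.26). Elavl3 at -0.51 lies below the band and the other 9 point estimates lie within it.

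Other RNA-binding genes were read from the same fit. In lists of family relatives, splicing regulators, hnRNP genes and regulators of stability and translation, 83 genes in all without the 10, 71 were tested. Of these 0 rose and 0 fell (limma), where 1.31% of all genes tested were called, and an unadjusted p under 0.05 was found for 3 that were higher and 1 that was lower, where 13.7% of all genes tested had one. Their median log2 fold change was 0.01. The 4, named after their values were seen, were Nova1, a neuronal splicing factor (0.26), Rbfox2, a splicing factor (0.18), Igf2bp2, an mRNA-binding protein (0.17), and Ptbp3, a polypyrimidine tract binding protein (-0.27), with limma adjusted p from 0.268 to 0.358. The authors' deposited table marks 1 of these genes as significant, Nova1, with q = 0.00931.

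The closest relatives of the 10 are given by value. Celf3 and Celf5 differed by 0.09 and 0.20 on the log2 scale (limma adjusted p = 0.825 and 0.537), and Celf4 and Celf6 were under 1 FPKM in every library. Of the hnRNP A relatives, Hnrnpa1, a splicing repressor, had 44.1 and 45.7 FPKM in knockout and 34.3 and 42.6 FPKM in control. Its knockout values are above the control values, but by less than the spread between control libraries (log2 fold change 0.23, limma adjusted p = 0.429). Hnrnpa0 and Hnrnpa3 had log2 fold changes of 0.13 and -0.02. Of the Quaking relatives with a KH domain of the same type, Sf1, which binds the branch point, was at 0.09, and Khdrbs1, Khdrbs2 and Khdrbs3 were at -0.04, 0.09 and 0.16.

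The abundant members of the other lists did not pass the test. Srsf5, Ewsr1 and Srsf2 had log2 fold changes of 0.03, 0.02 and 0.05, Hnrnpab and Pcbp1 of 0.06 and -0.03, and Caprin1, Pabpc1 and G3bp1 of -0.06, 0.02 and 0.03 (limma adjusted p 0.81 to 1). Hnrnpk averaged 342.1 FPKM in knockout and 341.5 FPKM in control. Except for Hnrnpab, each of these changed sign when a library was left out.

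**Figure D4:**
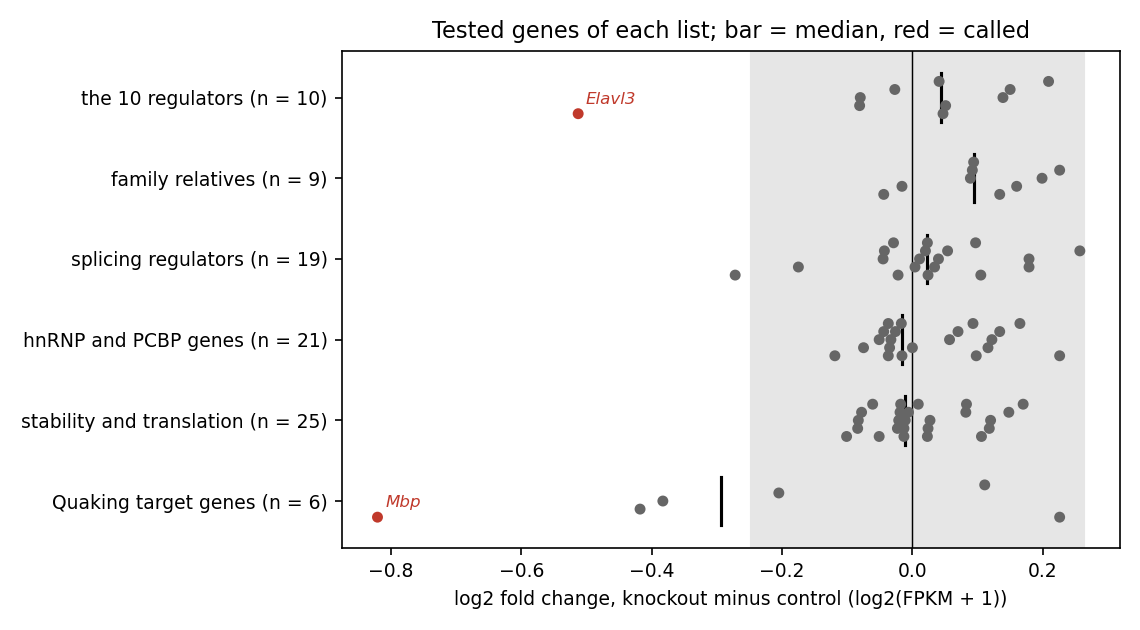
Log2 fold change, knockout minus control, of the tested genes of each list (points), with the list's median (bar); red points are called and the grey band is the 5th to 95th percentile of all genes tested. The 4 lists of other RNA-binding genes have no called gene, and Elavl3 among the 10 and Mbp among the Quaking targets are called. To the left of the band lie these 2 and the uncalled Mag and Nfasc (Quaking targets) and Ptbp3 (splicing regulators).

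The RNAs that Quaking and hnRNP A2 act on were read from the same fit. Of 6 Quaking target genes, 1 fell, 0 rose and 5 did not pass, where 0.783% of all genes tested were called lower and 1.31% either way. Their median log2 fold change was -0.29, against 0.005 over all genes tested. The list was chosen with earlier results of these data known, and it holds the myelin genes Mbp and Mag. The part of Quaking in these differences was not tested. Mbp, which encodes myelin basic protein, had 1501 and 1520 FPKM in knockout and 2683 and 2655 FPKM in control, a log2 fold change of -0.82 (limma adjusted p = 0.00504). Its call was lost with no filter on low values (adjusted p = 0.14) and on dropping any single library (adjusted p 0.0608 to 0.139).

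Mag, a myelin adhesion protein, had 354 and 374 FPKM in knockout and 501 and 472 FPKM in control. The knockout values lie below the control values, with a log2 fold change of -0.42 that did not pass (limma adjusted p = 0.0579). Nfasc, a cell adhesion protein, was at -0.38 (limma adjusted p = 0.0561). Under a pseudocount of 0.1, quantile normalization, TPM scaling and the replicate block both passed, with adjusted p from 0.0125 to 0.0416 for Mag and 0.013 to 0.0416 for Nfasc. Neither passed with no filter on low values (0.174 and 0.165), with a constant prior variance (0.0756 for both) or with any library left out (0.229 to 0.298 for Mag, 0.25 to 0.316 for Nfasc). The authors' deposited table marks Mag as significant with a log2 fold change of -0.54, and its status for Nfasc is a failed test.

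Map1b, a microtubule-associated protein, was at -0.20 (limma adjusted p = 0.334). Cdkn1b (p27), a cell cycle inhibitor, and Hnrnpa1 were at 0.11 and 0.23 (adjusted p = 0.552 and 0.429). Without control replicate 1 the log2 fold change of Hnrnpa1 was 0.07. The authors' deposited table gives smaller log2 fold changes for both, 0.065 for Cdkn1b and 0.032 for Hnrnpa1 (q = 0.926 and 0.993). Its pooled FPKM for Hnrnpa1 was 97.2 in knockout and 95.1 in control. The per-library means were lower, 44.9 in knockout and 38.5 in control. The signs thus differed among the Quaking targets, with 4 below 0 and 2 above. The last pair are those of the 5 targets read, without Mbp, whose 3′ UTRs hold the elements printed above, which was noted after the values were seen and not tested. Qk itself did not pass the test.

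Of the 3 genes whose mRNA carries or is reported to carry the hnRNP A2 trafficking element, Mbp is given above. Mobp, a myelin-associated basic protein, had 5.96 and 9.05 FPKM in knockout and 8.70 and 9.33 in control, and the groups overlap (log2 fold change -0.26, limma adjusted p = 0.573, 0.006 without knockout replicate 1). Car2, carbonic anhydrase II, had 3.68 and 4.15 FPKM in knockout and 2.71 and 2.90 in control, a log2 fold change of 0.37 that did not pass (limma adjusted p = 0.133). RNA levels do not show where an mRNA is in the cell.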

How the data were processed

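RNA of 2 knockout and 2 control oligodendrocyte samples was sequenced from Illumina TruSeq libraries. CASAVA, TopHat, Cufflinks, Cuffdiff and the build mm10 are listed, per the submitters' processing notes; their versions, the annotation and the strand setting are not stated there. The authors deposited gene-level FPKM per sample, with a status per the file headers. Their Cuffdiff table, per the file headers, holds a pooled FPKM per group, p-values, q-values, and a log2 fold change and test statistic, which were read as a score because the authors wrote infinite values as numbers. These are quoted as theirs.

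Here, rows of the same symbol were summed (258 symbols, none of the 10 regulators), and 9 symbols with a failed status were dropped. A mean of 1 FPKM or more was required, which 11361 genes met, and these were fitted as log2(FPKM + 1) with limma 3.58.1 in R 4.3.3 (lmFit, eBayes with an expression trend, 2 residual and 4.6 prior degrees of freedom, no covariate), with Benjamini-Hochberg adjustment over all of them. No count model was applied to FPKM. On data simulated over 11361 genes for this comparison, changes of 0.5, 1 and 2 (log2) were recovered for 33.3%, 71.2% and 96.9% of the altered genes, with 4 of 139 calls false. The simulated noise was independent and normal, with the spreads of the real genes shuffled across genes. These rates may therefore not hold for the real data or at a given level, such as that of Elavl3. Intervals are 95%.

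The text names the 10 regulators, lncOL1, called genes and the 3 most abundant genes of each list, all family relatives and all Quaking and hnRNP A2 targets; others are marked, and some genes of the lists are not reported here. The members and lists were chosen with earlier results of these data known. The alternatives were another pseudocount, no filter, 2 other scalings, a constant prior variance, the replicate block and each library left out.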

Additional observations from a re-analysis of the deposited data

How the results depend on the processing

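Of the 10 alternatives, 4 (pseudocount 0.1, quantile normalization, TPM scaling, constant prior variance) gave 128 to 201 called genes, against 149 as reported. With no filter on low values 4 genes were called among 17397, with the replicate block 341, and with each library left out 16 to 42. The count of called regulators was 1 under those 4 and the block, and 0 with no filter and with each library left out (0 to 0), where the adjusted p of Elavl3 was above 0.05. Over all alternatives its log2 fold change was -0.56 to -0.47. Leaving out a library leaves 1 residual degree of freedom and assumes that the lone sample varies like the other group. The titles share replicate numbers, but no label says what a number pairs. The correlation between same-numbered deviations across genes was -0.0523. With 2 pairs this cannot decide whether the samples are paired. With the replicate block the adjusted p of Elavl3 was 0.00496.

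The read depth behind a value is not given, so differences in genes near 1 FPKM, such as Elavl4, rest on an unknown number of reads. Signs of uncalled genes near 0 turned. Under quantile normalization the log2 fold change was 0.018 for Hnrnpk and 0.014 for Aldoc. With each library left out, the range was -0.095 to 0.041 for Elavl1, -0.212 to 0.053 for Qk, -0.033 to 0.136 for Celf2, -0.038 to 0.120 for Hnrnpa2b1, -0.075 to 0.043 for Hnrnpa3, -0.117 to 0.028 for Khdrbs1, -0.041 to 0.225 for Celf3, -0.067 to 0.136 for Srsf5, -0.038 to 0.147 for Srsf2, -0.035 to 0.202 for Olig1, -0.081 to 0.121 for Ewsr1, -0.093 to 0.093 for Hnrnpk and -0.100 to 0.049 for Pcbp1. It was -0.127 to 0.005 for Caprin1, -0.055 to 0.102 for Pabpc1, -0.003 to 0.058 for G3bp1, -0.523 to 0.006 for Mobp, -0.203 to 0.007 for Numb, -0.174 to 0.140 for Cdkn1a, -0.100 to 0.292 for Snap25, -0.032 to 0.029 for Aldoc, -0.010 to 0.112 for Vim and -0.160 to 0.083 for Hes5. The cause was not tested.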
